A study of Mus musculus with 12 samples.

Results

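A set of 9 genes known from neurons, glia or neural progenitors was followed in mouse embryonic fibroblasts, connective tissue cells grown in culture from embryos, that were wild type or labelled as a knockout of MLL1. The 9 genes, of 19938 genes on the array, were Cyfip2, Nrcam, Ncam1, Map2, Tubb3, Nes, Gfap, Gap43 and Sox2. They were picked by symbol, with earlier results of these data known, and each was read by 1 probe set, a group of array probes summarised to 1 value. MLL1 is a histone H3 lysine 4 methyltransferase encoded by Kmt2a. Wild-type and MLL1 knockout cells all received the same shock of 50% horse serum for 2 h, a pulse used to set the phase of clocks in culture, in medium whose serum was 5% fetal bovine and 5% newborn calf, and were sampled 18 h and 30 h after it, the times labelled CT18 and CT30. Each of the 4 groups (wild type 18 h, wild type 30 h, knockout 18 h, knockout 30 h) holds 3 arrays. The labels give no strain, embryo number, passage or separate line for either genotype, and no label says whether replicates came from separate cultures. The p-values therefore cover the spread of these arrays only, and that spread may be technical.

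MLL1 binds DNA through a domain that recognises unmethylated CG dinucleotides, and its methyl mark is found at promoters of active genes. Neurons carry a specialised cytoskeleton of tubulin, MAP proteins and regulated actin, and adhesion molecules of the L1 and NCAM families guide their axons. Nestin marks dividing neural progenitors and is also made by myoblasts and other cells that remodel their cytoskeleton.

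Since MLL1 recognises CG dinucleotides, the promoters were read for them. A promoter, 250 bases before to 50 after the gene's start, was listed by RefSeq (GRCm38.p6) for 7 of the 9 genes, and Ncam1 and Gap43 were not among them. The 4 genes that were at background in wild type and bright in knockout are shown, with Gfap, which was at background throughout, for comparison. Each line runs 5′ to 3′ on the gene's strand, and capitals mark CG dinucleotides.
Cyfip2: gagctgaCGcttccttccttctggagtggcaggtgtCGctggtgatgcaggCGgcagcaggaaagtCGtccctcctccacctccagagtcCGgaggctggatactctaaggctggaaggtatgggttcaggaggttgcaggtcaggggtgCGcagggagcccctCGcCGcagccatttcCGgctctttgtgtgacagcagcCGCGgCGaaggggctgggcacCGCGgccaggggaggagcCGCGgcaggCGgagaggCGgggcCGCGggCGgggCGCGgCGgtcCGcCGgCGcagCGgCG
Nrcam: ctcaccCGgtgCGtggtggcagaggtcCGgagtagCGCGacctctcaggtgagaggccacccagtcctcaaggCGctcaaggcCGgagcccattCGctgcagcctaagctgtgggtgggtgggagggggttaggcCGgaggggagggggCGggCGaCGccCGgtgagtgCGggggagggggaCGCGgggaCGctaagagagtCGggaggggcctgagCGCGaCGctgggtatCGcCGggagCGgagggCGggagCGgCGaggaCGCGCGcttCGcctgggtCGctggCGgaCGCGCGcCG
Map2: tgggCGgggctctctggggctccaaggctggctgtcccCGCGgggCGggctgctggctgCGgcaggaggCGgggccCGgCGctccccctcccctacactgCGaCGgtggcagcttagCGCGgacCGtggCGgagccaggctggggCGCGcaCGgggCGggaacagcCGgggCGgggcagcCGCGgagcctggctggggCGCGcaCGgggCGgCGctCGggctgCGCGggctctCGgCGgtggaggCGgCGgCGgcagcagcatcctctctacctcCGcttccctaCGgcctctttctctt
Nes: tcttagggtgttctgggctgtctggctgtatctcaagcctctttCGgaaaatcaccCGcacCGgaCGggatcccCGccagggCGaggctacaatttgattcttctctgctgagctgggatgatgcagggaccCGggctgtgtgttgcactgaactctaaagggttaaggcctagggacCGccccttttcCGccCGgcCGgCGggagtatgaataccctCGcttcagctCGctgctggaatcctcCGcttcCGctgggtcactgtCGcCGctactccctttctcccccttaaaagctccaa
Gfap: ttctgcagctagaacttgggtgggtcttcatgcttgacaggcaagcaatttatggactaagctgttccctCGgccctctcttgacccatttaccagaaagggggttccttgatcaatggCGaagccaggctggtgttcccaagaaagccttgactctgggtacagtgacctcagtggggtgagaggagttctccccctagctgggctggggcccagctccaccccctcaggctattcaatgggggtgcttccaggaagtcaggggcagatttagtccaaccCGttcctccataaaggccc

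Cyfip2 lies at chr11:46312309-46312608 (minus strand), Nrcam at chr12:44328635-44328934 (plus), Map2 at chr1:66175079-66175378 (plus), Nes at chr3:87970843-87971142 (plus) and Gfap at chr11:102897151-102897450 (minus). The windows of Map2 and Nrcam each held 37 CG dinucleotides, a count that 5.58% of the 32851 promoters reach. Cyfip2 held 29 (12.9% of promoters reach it), Sox2 27 (15.5%), Tubb3 26 (16.9%) and Nes 18 (29.7%). Gfap held 3, a count reached by 76.7% of promoters. The median promoter held 7. Sox2 and Gfap, both near background in these cells, thus lay at different places in this range. The clock E-box CACGTG, present in 7.15% of promoters, and the AP-1 site TGACTCA, present in 5.20% on either strand, were found in none of the 7 windows. The motif GGGCGG on either strand, held by 35.7% of promoters, occurred 5 times in Map2, 2 times each in Nrcam, Tubb3, Nes and Sox2, and 1 time in Cyfip2. It did not occur in Gfap. A match or its lack describes only the letters of these windows.

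**Figure D1:**
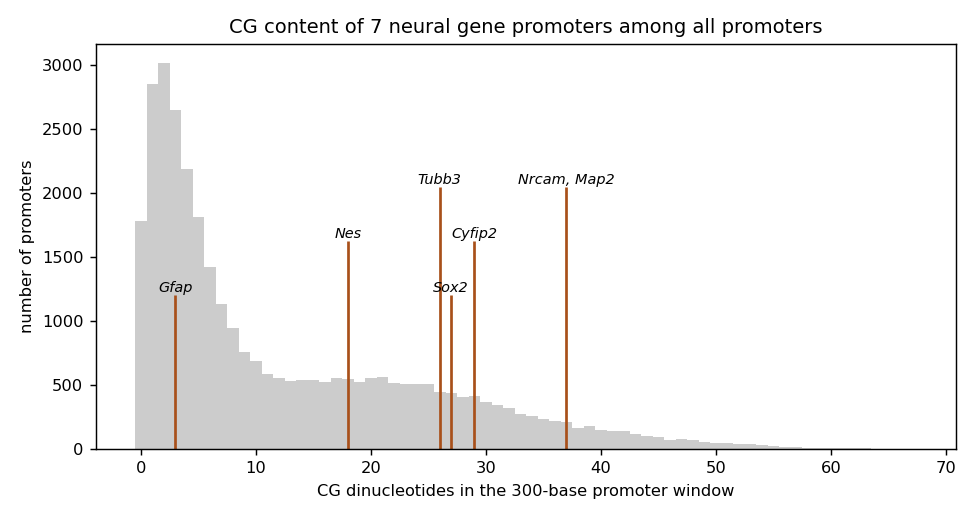
Distribution of the number of CG dinucleotides in the 300-base promoter windows of all 32851 promoters (grey bars, number of promoters), with lines at the counts of the 7 genes that matched. Gfap stands at 3 and the other 6 genes between 18 and 37, where the median promoter holds 7.

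The arrays gave intensities on a linear scale without a detection flag. A background level was therefore set for each array as the 95th percentile of 1194 olfactory and vomeronasal receptor genes, sensory receptors that fibroblasts are taken not to express. Probe sets differ in how they bind, so this level is a guide and levels of different genes were not ranked. Array medians over all probe sets ran from 273.3 to 311.8. Across genes, correlations were 0.989 to 0.997 within a group and 0.879 to 0.914 between genotypes. Knockout 18 h replicate 1 stood apart, at -9.70 on the second principal component, where its group's other arrays had -26.2 and -26.8 and those of knockout 30 h had 20.4 to 26.5. Kmt2a read 2100 to 2824 in wild type 18 h, 2069 to 2155 in wild type 30 h, 1960 to 2174 in knockout 18 h and 1338 to 1584 in knockout 30 h. The labels do not say where its probes lie relative to the disrupted part, so they do not serve as a check of the labels.

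In knockout, 6 of the 9 genes were above background on all 3 arrays at 18 h and 7 at 30 h, where 56.2% and 57.8% of all genes were. In wild type, with 57.1% of all genes above background at 18 h and 58.5% at 30 h, Ncam1 and Tubb3 were above background on all arrays at 18 h, and Tubb3 at 30 h. Cyfip2, Nrcam, Map2 and Nes were below background on all 6 wild-type arrays and bright on all 6 knockout arrays, while Gfap and Gap43 were below it on all 12. The genes were chosen for their difference between genotypes, so the knockout against wild-type values that follow are a description and carry no test. The intensities of the 2 genotypes did not overlap, with knockout higher, for 7 of the 9 genes at each time. Over all genes this held for 23.5% at 18 h and 23.6% at 30 h. In bulk RNA, more cells of a kind and more RNA per cell cannot be told apart.

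**Figure D2:**
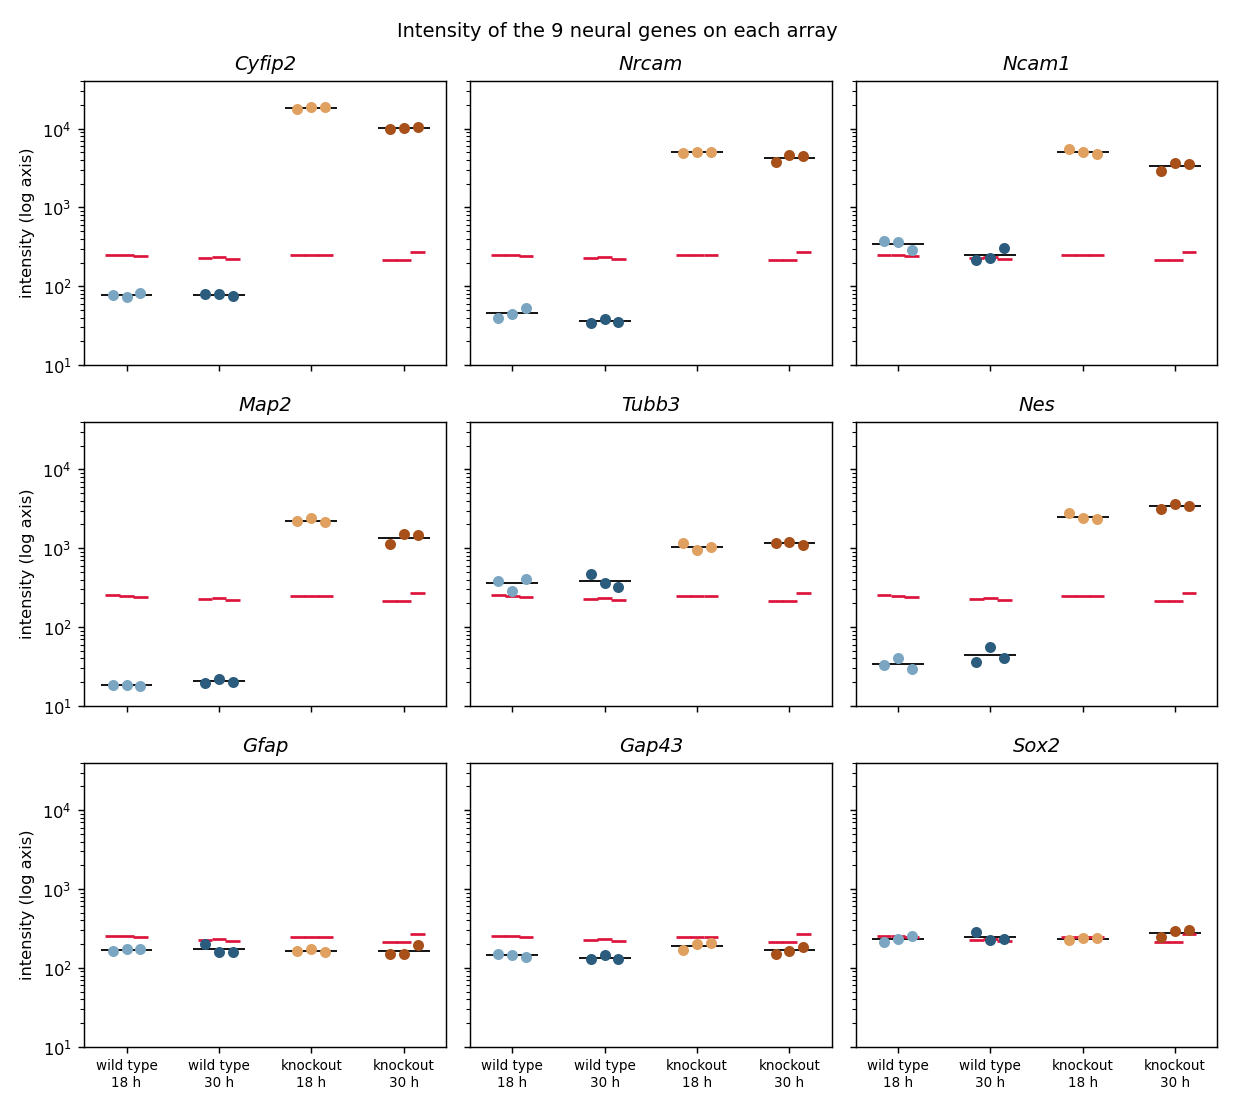
Intensity (log axis) of the 9 genes on each of the 12 arrays, 3 per genotype and time. Points are arrays, black lines are group means, and red ticks are the background level of each array. Cyfip2, Nrcam, Map2 and Nes lie below the ticks in wild type and above them in knockout, and Gfap and Gap43 lie below them in every group.

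Cyfip2 encodes a subunit of the WAVE complex, which drives branched actin assembly at the cell edge. Its intensity was 76.4, 72.1 and 81.1 in wild type 18 h and 79.7, 79.6 and 74.3 in wild type 30 h. The knockout arrays gave 17596, 18669 and 18551 for 18 h, then 10003, 10072 and 10315 for 30 h. The genotypes did not overlap, and every knockout 30 h array was lower than every knockout 18 h array. Wild-type values were close to the median of the receptor genes, 70.6 to 91.9 over the 12 arrays. Against the background level, knockout was at least 73.5-fold higher at 18 h and at least 44.7-fold higher at 30 h. A fold against a group below background is such a lower bound throughout. On the log2(intensity + 16) scale the difference was 7.63 at 18 h and 6.76 at 30 h (SE 0.0743 each).

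The adhesion members were Nrcam, an L1 family molecule of axons and nodes of Ranvier, and Ncam1, the neural cell adhesion molecule. Nrcam read 39.9, 44.2 and 52.3 in wild type 18 h and 34.4, 38.4 and 35.6 in wild type 30 h. It read 4952, 5109 and 5094 in knockout 18 h and 3745, 4635 and 4427 in knockout 30 h. Knockout was at least 20.3-fold higher at 18 h and at least 18.7-fold at 30 h. Ncam1 differed from Nrcam in wild type, where it was near the background level rather than far below it. Its wild-type values were 371.9, 367.5 and 289.1 at 18 h, against 214.7, 229.6 and 309.1 at 30 h, when 1 of 3 arrays was above background. Its knockout values were 5454, 5021 and 4771 at 18 h, against 2913, 3672 and 3565 at 30 h. Knockout was 14.9-fold higher at 18 h and, with only 1 of 3 wild-type arrays above background, 13.6-fold at 30 h. The genotypes did not overlap.

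Map2, whose protein binds microtubules in dendrites, was far below background in wild type, where its values were 18.6, 18.6 and 17.9 at 18 h, against 19.8, 22.2 and 19.9 at 30 h. In knockout it read 2185, 2414 and 2122 at 18 h, against 1130, 1514 and 1453 at 30 h. Knockout was at least 8.999-fold higher at 18 h and at least 5.97-fold at 30 h. Tubb3, the beta-tubulin used as a neuron marker, was present in both genotypes. Its wild-type values were 384.6, 283.7 and 403.1 at 18 h, against 464.7, 357.4 and 317.9 at 30 h. Its knockout values were 1150, 946.5 and 1050 at 18 h, against 1160, 1189 and 1094 at 30 h. Knockout was 2.96-fold higher at 18 h and 3.06-fold at 30 h, the smallest fold among the 6 genes above background in knockout at both times. Beta-tubulin genes are close relatives, and whether the probes also read another of them was not tested.

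The intermediate filament members parted. Nes, which encodes nestin, read 32.7, 40.6 and 29.1 in wild type 18 h and 35.6, 56.3 and 40.4 in wild type 30 h. In knockout it read 2789, 2403 and 2336 at 18 h, against 3167, 3664 and 3381 at 30 h. Knockout was at least 10.1-fold higher at 18 h and at least 14.98-fold at 30 h, and here the 30 h arrays were the higher ones. Gfap, the filament protein of astrocytes, read 157.2 to 199.3 over the 6 wild-type arrays and 150.8 to 195.1 over the 6 knockout arrays. All 12 values were below background and the genotypes overlapped. The log2 difference was -0.03 at 18 h (95% interval -0.26 to 0.21) and -0.06 at 30 h (-0.29 to 0.18).

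Gap43, a protein of growth cones, was below background on every array, so no fold is given. It read 151.1, 144.7 and 138.6 in wild type 18 h and 130.9, 145.0 and 129.9 in wild type 30 h. In knockout it read 168.8, 198.6 and 205.3 at 18 h, against 151.1, 164.7 and 185.6 at 30 h. The genotypes did not overlap within a time, but the highest knockout value was 0.83 of its array's background level. Sox2, a transcription factor of neural progenitors and pluripotent cells, lay at the background level. Its wild-type values were 211.9, 230.7 and 256.4 at 18 h, against 285.0, 227.2 and 234.3 at 30 h. Its knockout values were 224.1, 241.4 and 239.3 at 18 h, against 243.8, 296.3 and 301.0 at 30 h. All 3 knockout 30 h arrays were above background, by 1.11 to 1.39 times. The genotypes overlapped at both times, with a log2 difference of 0.01 at 18 h (95% interval -0.22 to 0.24) and 0.16 at 30 h (-0.07 to 0.39). Its status turned on the level used: Sox2 was above background in no group with the 99th percentile of the receptor genes, and in all 4 groups with their 90th percentile or with the 30th percentile of all genes.

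The change between 18 h and 30 h was not used to choose the genes and was tested with limma over all 19938 genes with Benjamini-Hochberg adjustment. In knockout, 3 of the 9 genes fell (Cyfip2, Map2 and Ncam1) and 1 rose (Nes). Of all genes, 13.0% fell and 14.4% rose in this comparison. Cyfip2 fell by 0.85 on the log2 scale (SE 0.0743, adjusted p = 5.43e-07), to 55.5% of its 18 h level. Map2 fell by 0.72 (SE 0.106, adjusted p = 6.69e-05), to 60.6%, and Ncam1 fell by 0.59 (SE 0.128, adjusted p = 0.00187), to 66.3%. The arrays of the 2 times did not overlap for any of these. Nes rose by 0.44 (SE 0.124, adjusted p = 0.0118), to 135.8% of its 18 h level, with all 3 arrays of 30 h above all 3 of 18 h. That call ended without knockout 18 h replicate 2 (0.41, adjusted p = 0.0501) or 3 (0.39, adjusted p = 0.0533) and without knockout 30 h replicate 2 (0.39, adjusted p = 0.0610). Without knockout 18 h replicate 1, the array that stood apart, all 4 calls held, with log2 differences of -0.88 for Cyfip2, -0.73 for Map2, -0.54 for Ncam1 and 0.52 for Nes.

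The other 5 genes did not pass in knockout. Nrcam had a log2 difference of -0.25 (95% interval -0.45 to -0.04, adjusted p = 0.0728) with arrays that did not overlap, Tubb3 0.13 (-0.15 to 0.42) and Sox2 0.23 (0.00427 to 0.47, adjusted p = 0.135). Gap43 and Gfap, at background, had -0.18 and -0.01. Nrcam passed in 4 alternatives: an offset of 64 (adjusted p = 0.0402), cyclic loess scaling (0.0261), array weights (0.0462) and a fit of the knockout arrays alone (0.0371). Sox2 passed without knockout 30 h replicate 1 (0.33, adjusted p = 0.0482). With array weights Sox2 (0.28, adjusted p = 0.00194), Tubb3 (0.27, adjusted p = 0.00795) and Gap43 (-0.24, adjusted p = 0.0023) passed as well. The estimation of these weights stopped before convergence. It gave knockout 30 h replicate 2 a weight of 12.1 and its group's other arrays 0.595 and 0.307. Knockout 18 h replicate 2 had 2.91, and the others of its group 0.299 and 0.688.

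In wild type, 0 of the 9 genes passed in limma, and 2 (Nrcam and Ncam1) had an unadjusted p under 0.05. Of all genes, 1.40% rose and 0.948% fell in wild type. Ncam1 had a log2 difference of -0.43 (SE 0.128, adjusted p = 0.0885), on values near the background level. Leaving out replicate 3 of wild type 18 h (-0.55, adjusted p = 0.0310) or of wild type 30 h (-0.58, adjusted p = 0.0389) made it pass, as did array weights (-0.50, adjusted p = 0.00993). Nrcam, far below background there, had -0.23 (adjusted p = 0.269).

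The difference of the time effects, knockout minus wild type, was called for 2 of the 9 genes, Cyfip2 and Map2, both lower, where 6.80% of all genes were called lower and 6.61% higher. It was -0.87 for Cyfip2 (SE 0.105, adjusted p = 7.38e-05) and -0.81 for Map2 (SE 0.150, adjusted p = 0.00181). Both genes were below background in wild type at both times, so the wild-type arm of this difference carries no measured level. For Ncam1 the difference was -0.16 (95% interval -0.54 to 0.23), for Nes 0.19 (-0.18 to 0.56) and for Nrcam -0.02 (-0.31 to 0.28).

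**Figure D3:**
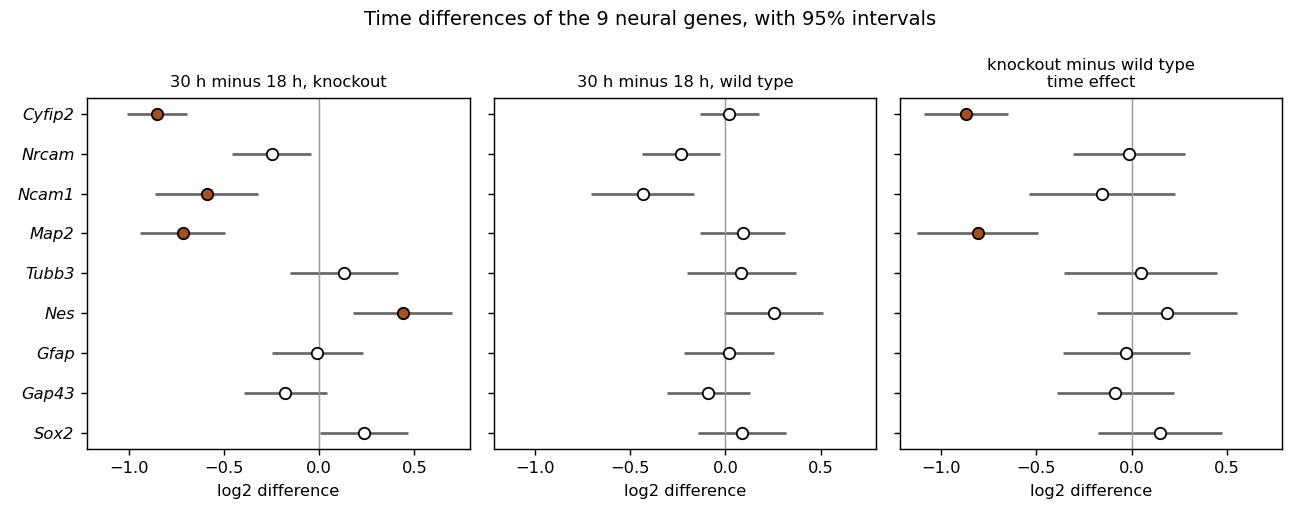
Log2 differences of the 9 genes (points) with 95% intervals (lines), for 30 h minus 18 h in knockout, the same in wild type, and the knockout minus wild-type difference of these. Filled points passed at an adjusted p under 0.05: Cyfip2, Ncam1, Map2 and Nes in knockout, none in wild type, and Cyfip2 and Map2 for the difference.

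Other genes of the same structures were counted from lists that exclude the 9 genes. The lists were drawn up with earlier results known, so their counts are descriptions set beside the share of all genes called: 20.1% higher and 25.4% lower in knockout at 18 h, and 18.2% higher and 21.0% lower at 30 h. A gene in several lists was counted in each. The median log2 difference of all genes was -0.01 at 18 h and 0.03 at 30 h.

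Of 14 measured partners of CYFIP2 in and around the WAVE complex, 6 were higher and 2 lower at 18 h, and 5 higher and 3 lower at 30 h (medians 0.14 and 0.11). Wasf3, a WAVE protein itself, went from below background to above it, from 33.6 to 396.8 at 18 h (at least 1.60-fold, adjusted p = 5.00e-08). Abi1, a scaffold of the complex, was 1.40-fold higher and the RNA-binding gene Fxr1 1.44-fold higher at 18 h. The GTPase gene Rac3 and Fmr1, which encodes the FMRP protein that binds CYFIP proteins, were 2.39-fold and 2.31-fold lower in knockout at 18 h. Rac3 fell further with time in knockout, by 0.96, and its time effects differed by -0.62 (SE 0.136, adjusted p = 0.00595).

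Of 19 L1 and NCAM relatives and partners, 8 were higher and 2 lower at 18 h, and 5 higher and 2 lower at 30 h (medians 0.15 and 0.10). Chl1, Nfasc, Ncam2, Cntn1, Cntn4, Cadm3, St8sia2 and St8sia4 were below background on all arrays, Cadm3 though called higher at 18 h. L1cam was below it on all wild-type and all knockout 30 h arrays. Cadm1, an adhesion molecule of synapses and epithelia, rose from below background, 37.0 to 1695 at 18 h (at least 6.77-fold), and was at least 9.24-fold higher at 30 h. Alcam, another immunoglobulin adhesion molecule, was 11.1-fold higher at 18 h and 6.96-fold at 30 h, and Cdh2, N-cadherin, 4.50-fold and 4.06-fold. The semaphorin receptor gene Nrp1 was 2.69-fold lower at 18 h and 1.52-fold lower at 30 h, and the ankyrin gene Ank3 1.47-fold and 1.92-fold lower. All 5 had adjusted p-values of 0.000645 or less at both times. The time effects of Nrp1 differed by 0.82 and those of Alcam by -0.67 (adjusted p = 0.00465 and 0.00975).

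Of 20 neuronal microtubule genes, 13 were higher and 1 lower at 18 h, and 9 were higher at 30 h with the other 11 not passing (medians 0.40 and 0.21). Dcx, Mapt, Stmn2, Stmn3, Map7d2 and Tubb4a were below background on all arrays of both genotypes. Map7d2 and Tubb4a were nevertheless among the genes called higher at 18 h. Crmp1 rose from below background, 43.2 to 810.8 at 18 h (at least 3.26-fold). Tubb2b, a beta-tubulin of developing neurons, was 12.8-fold higher at 18 h and 9.89-fold at 30 h, and Dpysl3, like Crmp1 a collapsin response mediator, 6.07-fold and 4.19-fold. These 3 had adjusted p-values of 1.16e-12 or less. Dclk1, a doublecortin-like kinase, and Tubb2a were higher at 18 h (log2 difference 0.82 and 0.53) but not at 30 h (0.00245 and -0.17), and their time effects differed by -0.82 and -0.70 (adjusted p = 0.00212 and 0.000964).

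Of 12 intermediate filament genes, 3 were higher at each time, with 2 lower at 18 h and 3 lower at 30 h (medians 0.10 and 0.09). The neurofilament genes Nefl and Nefm and Ina, genes of neuronal filaments, were below background on all wild-type arrays and on all knockout arrays at 18 h. Prph, Synm, Des, Vim, Lmna and Lmnb1 were above it in every group, wild type included. The nuclear lamin gene Lmnb1 was 2.00-fold higher at 18 h, Synm 1.57-fold and Prph 1.38-fold. At 30 h the Prph call was lost when wild-type replicate 2 (log2 difference 0.27), wild-type replicate 3 (0.22) or knockout replicate 1 (0.22) was left out. Vim, which encodes the vimentin that pairs with nestin, read 16498 in wild type 18 h and 15027 in knockout 18 h, a log2 difference of -0.13 (adjusted p = 0.00539). This call ended after array medians were set equal (-0.09), at 30 h under quantile scaling (-0.04), and at both times without the intensity trend. Lmna was lower by 0.45 at 18 h and by 0.27 at 30 h, a call that ended without knockout 30 h replicate 3 (-0.19).

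Of 14 genes of axon growth and calmodulin, 7 were higher at each time, with 3 lower at 18 h and 1 at 30 h (medians 0.29 and 0.31). Elavl3, Elavl4, Gprin1 and Stmn2 were below background on all arrays, Elavl4 though called higher at both times. Basp1, a membrane protein of growth cones related in behaviour to GAP43, was 4.36-fold higher at 18 h and 4.18-fold at 30 h (adjusted p = 9.32e-14 and 1.58e-13). Cap2, an actin regulator, rose from below background by at least 1.43-fold at 18 h, and Calm3, a calmodulin gene, was 1.76-fold higher. Sprr1a, induced in injured neurons but a structural gene of skin, was 7.16-fold lower at 18 h and 10.995-fold lower at 30 h. The time effects of Marcksl1 differed by 0.79 and those of Sprr1a by -0.61 (adjusted p = 0.00187 and 0.0119).

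Of 25 neural progenitor and neurogenic factors, 5 were higher and 1 lower at 18 h, and 4 were higher at 30 h with 21 not passing (medians 0.10 and 0.14). Sox9, a factor of glia, neural crest and cartilage, was 2.57-fold higher at 18 h and 4.18-fold at 30 h, and its time effects differed by 0.69 (SE 0.126, adjusted p = 0.00163). Lhx2 and Pax3 were 2.09-fold and 1.60-fold higher at 18 h. Sox9, Pax3, Hes5, Hes6, Neurod2, Pou3f1, Sox1, Sox3 and Sox21 were above background in every group, wild type included. Pax6, Otx2, Neurod1, Neurog1, Olig1 and Olig2 were among those below it on all 12 arrays. The status of list genes was read at the 95th percentile of the receptor genes only. Wild-type means of Sox1, Sox3, Sox21 and Pax3, 284.5 to 367.7, lay below the 99th percentile, 385.9 to 423.1 on the wild-type arrays. Of 23 synapse genes, 5 were higher at 18 h and 6 at 30 h, and the others did not pass (medians 0.0011 and 0.10). Syn1, a synaptic vesicle gene, rose from below background by at least 5.32-fold at 18 h and at least 3.07-fold at 30 h. Its time effects differed by -0.79 (SE 0.143, adjusted p = 0.00155). Dlg4, the postsynaptic scaffold PSD-95, was 2.15-fold and the syntaxin gene Stx1a 1.62-fold higher at 18 h. The summed intensity of the synapse list was 4700 to 4861 in wild type 18 h and 4266 to 4666 in wild type 30 h. In knockout it was 6995 to 7269 at 18 h and 5575 to 6504 at 30 h. Within this sum at 18 h, the mean of Syn1 was 200.2 in wild type and 1324 in knockout. That of Dlg4 was 742.2 and 1595, so the sum does not stand for the list as a whole. Dlg4, Stx1a, Gad1, Rbfox3 and Slc32a1 were above background in every group, wild type included, and Syp, Snap25, Syt1 and Scg2 were among those below it on all 12 arrays.

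Of 14 astrocyte and radial glia genes, 3 were higher and 5 lower at 18 h, and 2 higher and 4 lower at 30 h (medians -0.12 and -0.05). Aldoc, a glycolytic enzyme, rose from below background by at least 4.56-fold at 18 h, and its time effects differed by -1.87 (SE 0.155, adjusted p = 4.22e-06). Fabp7 was below background in wild type and on all but 1 knockout array, so no fold is given, and its time effects differed by 0.76 (adjusted p = 0.00613). Nfia was 3.77-fold and Cst3 1.40-fold lower at 18 h. Apoe, Cst3, Gja1, Glul, Nfia, Nfib and S100b were above background in every group, wild type included. Aqp4 and Aldh1l1, markers of mature astrocytes, and Gjb6 were below background on all 12 arrays.

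REST represses neuronal genes outside the nervous system together with corepressors. Of 11 genes of this list, 4 were higher and 4 lower at 18 h, and 6 higher and 3 lower at 30 h (medians 0.09 and 0.21). Rest itself was above background in every group of both genotypes. Rcor2 was above background on 1 of 3 wild-type arrays at 18 h and on none at 30 h. Against these wild-type values, mostly not above background, it was 6.04-fold higher in knockout at 18 h and at least 10.3-fold higher at 30 h (adjusted p = 1.92e-11 and 8.90e-14), and its time effects differed by 1.18 (adjusted p = 0.000679). Kdm1a and Rcor1 were 1.16-fold and 1.22-fold higher at 18 h, calls that ended without wild-type 18 h replicate 3 (log2 0.14 and 0.21) or knockout 18 h replicate 1 (0.16 and 0.20). The Kdm1a call at 18 h also ended without the intensity trend (adjusted p = 0.0535), with array weights (adjusted p = 0.0937) and in a fit of the 18 h arrays alone (adjusted p = 0.0999). Rcor3 was 1.99-fold and Ctdsp1 2.05-fold lower at 18 h.

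**Figure D4:**
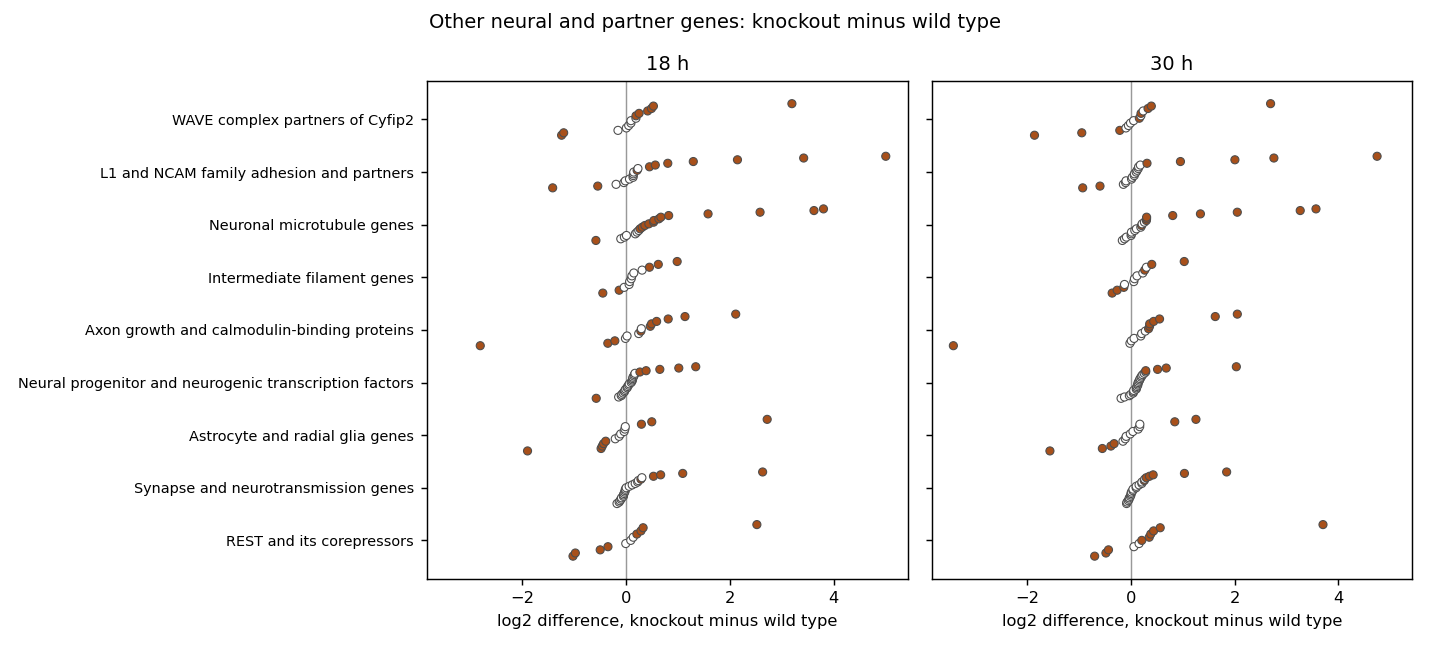
Log2 difference, knockout minus wild type, of each measured gene of 9 lists at 18 h (left) and 30 h (right), ordered by size within a list. Filled points passed at an adjusted p under 0.05. In the microtubule list 13 of 20 genes were higher and 1 lower at 18 h, and in the astrocyte list 3 were higher and 5 lower. Map7d2 and Tubb4a of the microtubule list were called higher at 18 h while below background on all arrays.

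Markers of other cell types were read beside these results. Fibroblast markers were above background for 12 of 14 genes in every group, with a summed intensity of 72103 to 76011 in wild type 18 h, 73217 to 75737 in wild type 30 h, 69136 to 70923 in knockout 18 h and 68723 to 72723 in knockout 30 h. Single fibroblast markers moved both ways, with 5 of 14 higher and 6 lower in knockout at 18 h and 4 higher and 7 lower at 30 h. Those past 1 log2 unit at 18 h, named after their values were seen, were the matrix gene Dcn (3.74) and, lower, Pdgfra (-3.22), Col3a1 (-2.53), Pdgfrb (-1.63) and S100a4 (-1.51). Endothelial markers were above background for 0 of 8 genes in every group. Oligodendrocyte markers summed to 1815 to 1989 in wild type 18 h, 1725 to 1920 in wild type 30 h, 1885 to 1918 in knockout 18 h and 1702 to 1834 in knockout 30 h, with Mog, Mag, Olig1 and Olig2 below background on all arrays and Cnp, Mbp and Sox10 above it in every group. Of 10 skeletal myoblast markers, Myog, Myf5, Myf6, Pax7 and Chrna1 were below background on all arrays, while Des and Pax3 were above it in every group. Myod1 was above it on all arrays of both knockout groups and of neither wild-type group, with means of 249.7 and 268.6 in wild type 18 h and knockout 18 h that did not pass the test (log2 difference 0.11, adjusted p = 0.571). The list had 2 genes higher at each time, Pax3 and Actc1, and 1 lower at 30 h, Des (log2 difference -0.36, adjusted p = 0.0196). Its summed intensity was 2914 to 3179 in wild type 18 h and 2799 to 2867 in wild type 30 h. In knockout the sum was 3308 to 3470 at 18 h and 2917 to 3004 at 30 h. Of 9 Schwann and neural crest markers, 2 were called higher and 2 lower at 18 h and again at 30 h, and the sum was 10665 to 11648 in wild type 18 h, 9863 to 10095 in wild type 30 h, 9461 to 10796 in knockout 18 h and 8880 to 9805 in knockout 30 h. The higher ones, named after their values were seen, were Tfap2a, 24.8 in wild type against 546.9 in knockout 18 h, and Erbb3, 106.2 against 284.4. Erbb3 was below background on all wild-type and all knockout 30 h arrays. The 2 called lower are not named, so these values show only 1 side of the list. Foxd3 and Cdh19 were below background on all arrays, and Mbp, Ngfr, Pmp22, S100b and Sox10 were above it in every group. Of 10 macrophage and blood markers, 1 was called higher in knockout at each time. Cd68 and Itgam were above background in every group, and Adgre1, Aif1, Csf1r, Lyz2, Ptprc and Tyrobp were below it on all arrays. The list summed to 2625 to 2704 in wild type 18 h and 2358 to 2465 in wild type 30 h. In knockout the sum was 2824 to 4473 at 18 h, where arrays differed widely, and 2345 to 2482 at 30 h. Pluripotency markers summed to 2020 to 2241, 2156 to 2263, 2508 to 2628 and 2327 to 2482 in the same order. Of these 8 markers Pou5f1, Zfp42, Dppa3, Esrrb and Tdgf1 were below background in every group, and Klf4 and Nanog were above it in every group. The part of any other cell type in the knockout levels was not tested.

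The genes with a pattern most like each of the 7 genes above background in some group were taken as the 3 with the smallest distance over the 12 arrays after centring each gene on its own mean. All points share these 12 arrays and the genotype split, so the likeness is a description. For Cyfip2 these were Nrcam and the protease genes Ctsc and Htra1, with correlations of 0.996 to 0.998. For Nrcam they were Ctsc, the matrix protease Mmp10 and the transcription factor Sox11, which was also nearest to Map2, with Stc1 and Tnc after it. Sox11, a factor of immature neurons, read 4.17 in wild type 18 h and 1353 in knockout 18 h (at least 5.43-fold), and 5.14 and 877.4 at 30 h. For Ncam1 they were Klf12, Vldlr and Mef2c, for Tubb3 Nfkbie, Shb and Dennd2a, and for Nes Ifi202b, Mboat2 and Tnc. For Sox2, near background and with little spread, they were Ttc24, itself below background on all arrays, Fndc11 and Mafa, with correlations of 0.886 to 0.943.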

How the data were processed

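RNA of 12 samples was hybridised to Affymetrix arrays after whole-transcript labelling, per the labels' protocols. The deposited intensity per probe set is linear and was made by the authors using Expression Console 1.1 (Affymetrix) and the PLIER algorithm 2.0, as the submitters' processing notes list; no source used here states how arrays were scaled to each other. Of 35557 probe sets, 21789 had 1 symbol in the platform annotation, 1621 several and 12147 none listed; 21698 were matched by Entrez number to RefSeq (GRCm38.p6). Each gene kept its probe set of highest mean. Dim genes were kept. Values were log2(intensity + 16), a scale that understates the change of dim genes. The 4 group means were fitted with limma 3.58.1 in R 4.3.3 (eBayes with intensity trend, 8 residual degrees of freedom), and calls used Benjamini-Hochberg adjusted p under 0.05 over 19938 genes. Folds are ratios of geometric means; a group below background took the background level. The number of arrays limits the precision. The members and lists were chosen with earlier results of these data known. From each list, up to 3 rises and 2 falls called at both times without overlap, and up to 2 genes called for the difference of time effects, were named. The fit was tested on simulated data. Alternatives were offsets, a filter, 3 scalings, eBayes settings, array weights, fewer arrays, other probe set rules, a replicate block, other background levels and each array left out.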

Additional observations from a re-analysis of the deposited data

Results flagged for a closer look

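By limma's term for the difference of the time effects, 2673 genes of the array changed differently from 18 h to 30 h in knockout and wild type. The values below, on the log2 scale, are for the 9 genes and for up to 2 genes of each list, 16 genes in all. Further genes of the lists also passed, Dpysl3 (-0.53), Cap2 (0.49) and Kdm1a (0.36) among them. Among the 9 genes it was -0.87 for Cyfip2 and -0.81 for Map2, both below background in wild type. Among partners it was -0.62 for Rac3 and -0.51 for Fxr2, a call of Fxr2 that ended without any 1 of 5 single arrays. Among adhesion genes it was 0.82 for Nrp1 and -0.67 for Alcam. Among microtubule genes it was -0.82 for Dclk1 and -0.70 for Tubb2a. Of the axon growth genes Marcksl1 had 0.79 and Sprr1a -0.61. Of the progenitor, glial and synapse genes Sox9 had 0.69, Fabp7 0.76, Aldoc -1.87 and Syn1 -0.79. Fabp7, Aldoc, Syn1 and also Cap2 were below background on all wild-type arrays. The wild-type arm of their differences thus carries no measured level, and Fabp7 was above background on only 1 knockout array. Of the REST list Rcor2 had 1.18 and Ctdsp1 0.54, and the Ctdsp1 call, at an adjusted p of 0.0495, ended in most alternatives. Rcor2 was above background on only 1 of 3 wild-type arrays at 18 h and on none at 30 h.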

How the results depend on the processing

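The number of members above background in knockout, 6 at 18 h and 7 at 30 h, moved by at most 1.5 times under the alternatives tried. In wild type it was 2 at 18 h and 0 with the 99th percentile of the receptor genes. At 30 h it was 1, and it was 3 with the 90th percentile or with the 30th percentile of all genes, 0 with the 99th percentile, and 1 to 2 with an array left out. Members called for time in knockout were 4, 8 with array weights, and 3 to 5 with an array left out. In wild type they were 0, 1 with array weights and 0 to 1 with an array left out, each time Ncam1; for the difference they were 2 in every alternative. With array weights, whose estimation stopped before convergence, the genes called over the whole array were 10812 for time in knockout (5453 without), 1443 for time in wild type (468) and 6227 for the difference (2673). Time calls in wild type were also 263 without the intensity trend, 794 in a fit of wild type alone, and 129 to 847 with an array left out; the difference gave 1729 to 4021, with 4021 without knockout 18 h replicate 1 and 1729 without replicate 2. The offset moved the knockout against wild-type log2 difference of genes dim in wild type, of Map2 at 18 h from 6.85 with 1 to 4.80 with 64. Between groups, deviations from group means correlated at -0.39 to 0.34 over 18 pairs of arrays with the same replicate number. Over 36 pairs with different numbers the range was -0.35 to 0.42. With so few arrays a group, this cannot tell whether arrays of 1 number shared a culture or batch. With the number as a block, 4, 0 and 2 members were called for time in knockout, in wild type and for the difference.

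Directions turned only for values that did not pass: Cyfip2 for time in wild type (-0.0138 to 0.0567 with an array left out), Nrcam for the difference (0.0669 with offset 1, 0.0186 with array weights, -0.0935 to 0.0761 with an array left out), Ncam1 for the difference (0.0411 with array weights), Tubb3 for time in wild type (-0.0662 to 0.20 with an array left out), Tubb3 for the difference (-0.0036 under quantile scaling, -0.00214 under cyclic loess scaling, -0.0666 to 0.20 with an array left out), Gfap for time in knockout (-0.12 to 0.0484 with an array left out), Gfap for time in wild type (-0.00604 with array weights, -0.0802 to 0.0766 with an array left out), Gfap for the difference (-0.14 to 0.0714 with an array left out), Sox2 for time in wild type (-0.00953 to 0.15 with an array left out). The cause of these changes was not tested.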
